A study of Homo sapiens with 4 samples.

Results

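Sphingosine-1-phosphate (S1P) genes are described here in Hey-A8 cells, an established human ovarian cancer cell line. The genes were selected by symbol from the deposited gene count table. They are the kinases SPHK1 and SPHK2, the related ceramide kinase CERK, the lyase SGPL1, the phosphatases SGPP1 and SGPP2, the exporter SPNS2 and the receptors S1PR1, S1PR2 and S1PR3. All 10 were found, each in 1 row, among the 58735 genes of the table, and all 10 passed the filter on low counts, which left 15313 genes to test. RNA sequencing compared 2 libraries of the shCON group, which carries a negative control hairpin, with 2 libraries of the shSPTLC2 group, labelled as a knockdown of SPTLC2. The design text calls the knockdown stable, whereas the treatment protocol speaks of plasmids with hairpins against ZDHHC15, of transient transfection and of harvest after 36 h. Titles decided the grouping. How many hairpins or clones were used, and whether the replicates are separate cultures, is not given in the sources used here. The p-values therefore measure only the spread between these libraries, which may be technical. Values given in pairs are always in the order of replicate 1 and replicate 2.

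SPTLC2, a subunit of the enzyme that begins sphingolipid synthesis, served as the check of the labels, with 871 and 884 counts in the shCON libraries against 587 and 662 in the shSPTLC2 libraries. Log2 fold changes are given as shSPTLC2 over shCON, with p-values from the quasi-likelihood test of edgeR after Benjamini-Hochberg adjustment. That of SPTLC2 was -0.52 ± 0.12 (SE, adjusted p = 0.0063), and the call ended when shSPTLC2 replicate 1 (adjusted p = 0.134) or replicate 2 (0.052) was left out. A lower level in every cell cannot be told apart from a loss in some of the cells. ZDHHC15 was at 0 in each of the 4 libraries, where 3 counts, the limit that a count of 0 allows, correspond to 0.195 to 0.206 CPM (counts scaled by library size to a common total). Library totals ran from 14464784 to 15084966 counts. Mitochondrial genes took 5.46% and 6.39% of counts in the shCON libraries and 10.1% and 8.56% in the shSPTLC2 libraries, and the part of this difference in the results was not tested. The Mullerian marker PAX8 (mean 376 CPM) and keratin KRT8 (1235 CPM) were abundant, PAX8 rose by 0.73 ± 0.11 and MSLN by 0.61 ± 0.16 (log2, adjusted p = 0.00044 and 0.016), while CDH1 was at 0 and EPCAM (0.455 CPM) and MUC16 (0.0169 CPM) were near it. Leukocyte markers summed to 0.270 to 0.340 CPM.

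S1P is made from sphingosine, a breakdown product of ceramide, by sphingosine kinases. The phosphatases return it to sphingosine, whereas the lyase cleaves it irreversibly and so provides the exit from the sphingolipid pathway. S1P that leaves the cell, by way of SPNS2 among other transporters, binds G protein-coupled receptors that control migration, survival and the barrier function of vessels. S1PR1 couples mainly to Gi, while S1PR2 and S1PR3 also couple to G12/13 and Gq. CERK does not make S1P but phosphorylates ceramide to ceramide-1-phosphate, another signalling lipid.

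Between the groups, 2 receptor genes rose, 1 phosphatase gene fell and 7 of the 10 genes were not called at an adjusted p under 0.05. S1PR2 and S1PR3 were higher in shSPTLC2, SGPP2 was lower, and no kinase, lyase or exporter gene was called. Over all tested genes 10.4% were called higher and 9.0% lower, 19.4% in all, so 3 of 10 is a share close to that background. The median log2 fold change of the 10 genes was -0.13, against 0.005 over all tested genes. For 6 of the 10 genes both shSPTLC2 values lay on 1 side of both shCON values, 3 above and 3 below. Over all tested genes that was so for 61.5%, with 31.3% above and 30.2% below.

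**Figure D1:**
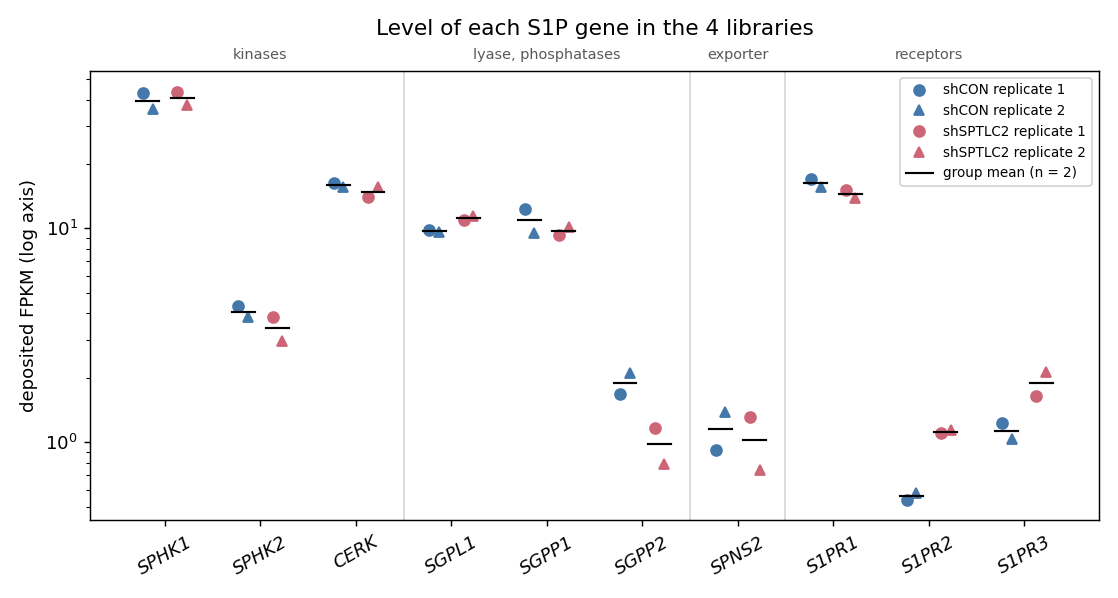
Deposited FPKM (log axis) of the 10 S1P genes in each of the 4 libraries, by role, with a bar at each group mean (n = 2). SPHK1 lies highest, at 36.0 to 43.6 FPKM. The shSPTLC2 points of S1PR2, S1PR3 and SGPL1 lie above both shCON libraries, and those of SGPP2, S1PR1 and CERK below. Over all tested genes the groups did not overlap in CPM for 61.5%.

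Per length of gene, on the deposited FPKM scale, SPHK1 had the highest level of the 10 genes, with a mean of 40.1 and a range over the 4 libraries of 36.0 to 43.6. S1PR1 (mean 15.4, range 13.9 to 17.1) and CERK (mean 15.4, range 14.1 to 16.3) followed and overlapped each other. SGPL1 (mean 10.5, range 9.58 to 11.4) and SGPP1 (mean 10.3, range 9.27 to 12.4) came next, also with overlapping ranges. SPHK2 stood alone at a mean of 3.74 (range 2.96 to 4.32). The lowest levels were those of S1PR3 (mean 1.51, range 1.04 to 2.12), SGPP2 (1.44, range 0.794 to 2.10), SPNS2 (1.09, range 0.739 to 1.39) and S1PR2 (0.840, range 0.538 to 1.14). Each of these 4 ranges overlaps its neighbours, so their order is not set beyond the spread of the libraries. The length in the table is the summed length of all annotated exons, which for S1PR3 is 13578 bases against 8505 bases in its longest transcript. With the length of the longest transcript, an alternative chosen after seeing the data, the order of the 10 means over the 4 libraries was the same.

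Of the kinases, SPHK1, the growth factor-responsive cytoplasmic kinase, was abundant and did not separate the groups. Its counts were 2797 and 2334 in the shCON libraries and 2862 and 2589 in the shSPTLC2 libraries, or 189, 160, 195 and 169 CPM. Replicate 1 was the higher library in both groups, and the groups overlapped. The log2 fold change of SPHK1 was 0.06 ± 0.12 (SE, adjusted p = 0.76), and its sign turned in 4 of 17 alternatives.

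SPHK2, the other kinase, which is found in the nucleus and mitochondria as well, had 25.9 and 23.2 CPM in the shCON libraries and 23.5 and 17.9 CPM in the shSPTLC2 libraries. Only shSPTLC2 replicate 2 lay below both shCON libraries. Its log2 fold change was -0.25 ± 0.15 (adjusted p = 0.28), and with a correction for GC content it was -0.55 ± 0.14 and called lower (adjusted p = 0.015). Exons of DBP, RPL18 and an antisense gene cover parts of the SPHK2 exons on the opposite strand. The strand setting of the counting is not given in the sources used here. RPL18 shares 246 exonic bases and had 10746 and 10469 counts in shCON and 10418 and 10581 in shSPTLC2. DBP shares 661 and had 33 and 27 counts, then 45 and 60. The antisense gene shares 678 and had 6 and 3, then 6 and 11. The part of these overlaps in the SPHK2 counts and in the ratios that follow was not tested. The FPKM of SPHK1 was 9.91 and 9.40 times that of SPHK2 in the shCON libraries and 11.3 and 12.8 times in the shSPTLC2 libraries. The shSPTLC2 ratios were thus both above the shCON ratios, with an exact two-sided permutation p of 0.33, the smallest that 2 libraries against 2 can give.

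CERK had 80.3 and 77.6 CPM in the shCON libraries and 70.3 and 77.5 CPM in the shSPTLC2 libraries. Both shSPTLC2 values lay below both shCON values, replicate 2 only just. The log2 fold change was -0.10 ± 0.11 (adjusted p = 0.59), and CERK was not called.

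SGPL1, the lyase that destroys S1P, was slightly higher in both shSPTLC2 libraries without passing the test. It had 73.7 and 72.3 CPM in shCON and 83.2 and 86.3 CPM in shSPTLC2, and these did not overlap. The difference on the log2 scale was 0.21 ± 0.11 (adjusted p = 0.18). The ratio of SPHK1 to SGPL1, a per-length comparison of the gene that makes S1P with the gene that cleaves it, was 4.34 and 3.76 in the shCON libraries. It was 3.97 and 3.31 in the shSPTLC2 libraries, and the groups overlapped (exact permutation p = 0.67).

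The phosphatases differed from each other in level and in change. SGPP1, the more abundant of the pair, had 40.9 and 31.6 CPM in the shCON libraries and 31.1 and 33.9 CPM in the shSPTLC2 libraries. These groups overlapped, and shCON replicate 1 was the library that stood high. Its log2 fold change was -0.16 ± 0.14 (adjusted p = 0.46).

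SGPP2 fell. Its counts were 83 and 103 in the shCON libraries and 58 and 41 in the shSPTLC2 libraries, or 5.60, 7.07, 3.94 and 2.67 CPM. Both shSPTLC2 libraries were below both shCON libraries, and the lowest level was in shSPTLC2 replicate 2. The mean was 6.33 ± 1.04 CPM (SD, n = 2) in shCON and 3.31 ± 0.900 CPM in shSPTLC2, a log2 fold change of -0.94 ± 0.27 (SE, adjusted p = 0.023). The call ended without shCON replicate 2 (adjusted p = 0.066), without shSPTLC2 replicate 1 (0.062) and without shSPTLC2 replicate 2 (0.22), and in DESeq2 (0.085), while the log2 fold change stayed between -1.24 and -0.55 over the 17 alternatives. The FPKM of SGPP2 was 0.136 and 0.222 of that of SGPP1 in the shCON libraries and 0.126 and 0.0783 in the shSPTLC2 libraries (exact permutation p = 0.33, the smallest possible).

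SGPP2 (ENSG00000163082) lies on hg38 chromosome 2, 222424517 to 222560948, on the plus strand, with 1 annotated transcript in GENCODE 29. RefSeq gives 2 starts for it, an upstream one 529 bases from the annotated start and a second 26 bases from it. The 250 bases before the upstream one, at chr2:222423738-222423987 on GRCh38.p14, are printed. They were picked because this is the called gene with the rarest of the motifs searched, and the motifs were chosen after the windows had been read. The capitals mark, in order, an NF-kB motif, 139 bases before the start, and the AP-1 motif TGACTCA, 63 bases before it.
SGPP2: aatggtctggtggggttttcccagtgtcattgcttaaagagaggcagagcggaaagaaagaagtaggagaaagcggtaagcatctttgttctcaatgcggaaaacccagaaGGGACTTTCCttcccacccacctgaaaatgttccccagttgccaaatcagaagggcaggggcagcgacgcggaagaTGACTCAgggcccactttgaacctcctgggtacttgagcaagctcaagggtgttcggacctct
The NF-kB letters are in 63 of 35116 such RefSeq windows, 0.179%, counting both strands, and the AP-1 letters are in 4.20%. The window before the second start holds neither, but 7 GC boxes (GGGCGG on either strand), letters that 42.6% of windows hold at least once. A match of letters is a description of the sequence, and binding was not measured.

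SPNS2, which carries S1P out of the cell, was low and variable. It had 56 and 84 counts in the shCON libraries and 80 and 47 counts in the shSPTLC2 libraries, or 3.78, 5.77, 5.44 and 3.06 CPM. The lowest and the second highest value both belonged to shSPTLC2, so the groups overlapped. The log2 fold change was -0.17 ± 0.31 (adjusted p = 0.74), the widest error of the 10 genes. MYBBP1A, on the opposite strand, shares 139 exonic bases with SPNS2, 3.38% of its exon length. It had 2200 and 2188 counts in shCON and 2143 and 2040 in shSPTLC2. The part of this overlap in the SPNS2 counts was not tested.

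Of the receptors, S1PR1 was the most abundant by far and was not called. It had 1321 and 1197 counts in the shCON libraries and 1168 and 1125 in the shSPTLC2 libraries, or 89.1, 82.2, 79.4 and 73.3 CPM. Both shSPTLC2 libraries were below both shCON libraries, but the log2 fold change was only -0.17 ± 0.11 (adjusted p = 0.32).

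S1PR3 rose. Its counts were 247 and 207 in the shCON libraries and 332 and 446 in the shSPTLC2 libraries, or 16.7, 14.2, 22.6 and 29.1 CPM. The groups did not overlap, and the shSPTLC2 replicates differed from each other by more than the shCON replicates did. The mean went from 15.4 ± 1.73 CPM (SD, n = 2) to 25.8 ± 4.58 CPM, a log2 fold change of 0.74 ± 0.16 (SE, adjusted p = 0.0047). Without shSPTLC2 replicate 2, the library with the highest value, the log2 fold change was 0.55 ± 0.20 and not called (adjusted p = 0.11). It was also not called in limma on log2(FPKM + 0.1) (adjusted p = 0.082), and over the 17 alternatives adjusted p ran from 1.3e-05 to 0.26 and the log2 fold change from 0.43 to 0.91.

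S1PR2 rose from the lowest level of the 10 genes. Its counts were 29 and 31 in the shCON libraries and 60 and 64 in the shSPTLC2 libraries, or 1.96, 2.13, 4.08 and 4.17 CPM. The replicates of each group were close to each other, and the groups were well apart. The mean went from 2.04 ± 0.122 CPM (SD, n = 2) to 4.13 ± 0.0634 CPM, with a log2 fold change of 1.01 ± 0.29 (SE, adjusted p = 0.025). The size of this change was above that of 93.9% of tested genes, against 92.5% for SGPP2 and 87.2% for S1PR3. Among tested genes with a mean CPM within 2-fold of their own, it was 89.6% for S1PR2, 89.5% for SGPP2 and 92.8% for S1PR3, so the order of the 3 genes depends on which genes they are set against. The size held when a library was left out (0.94 to 1.07), while the call ended without shCON replicate 1 (adjusted p = 0.051), without shSPTLC2 replicate 1 (0.14), without shSPTLC2 replicate 2 (0.13) and in DESeq2 (0.13). Over the 17 alternatives the log2 fold change ran from 0.44 to 1.07, the lowest being on the log2(FPKM + 1) scale, which understates changes of low genes. DNMT1, on the same strand, shares 83 exonic bases with S1PR2, 2.28% of its exon length, and had 3594 and 3848 counts in shCON and 3258 and 3354 in shSPTLC2. Whether reads over the shared bases entered the S1PR2 counts was not tested.

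**Figure D2:**
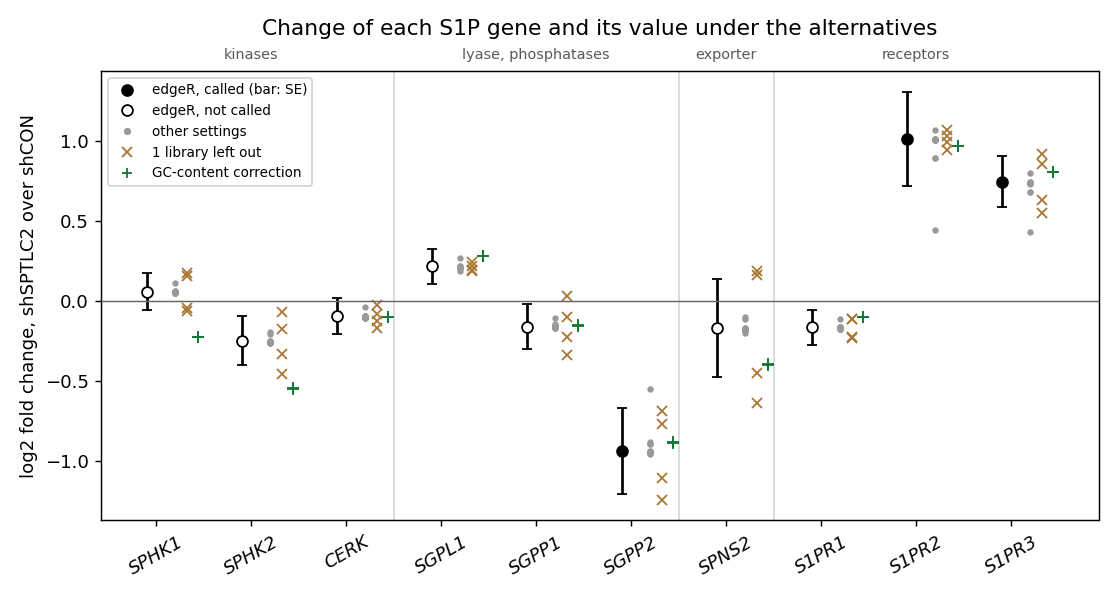
Log2 fold change (shSPTLC2 over shCON) of each S1P gene in edgeR with its SE, filled where called, beside its values under the 17 alternatives, with those that leave out 1 library and those with a GC-content correction drawn apart. S1PR2, S1PR3 and SGPP2 keep their direction in all 17, while SPHK1, SGPP1 and SPNS2 cross 0 in some.

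The shares of the receptor transcripts differed between the libraries of the groups. S1PR1 made up 88.6% and 89.8% of the summed FPKM of S1PR1 to S1PR5 in the shCON libraries and 81.9% and 78.7% in the shSPTLC2 libraries. S1PR3 made up 6.37% and 5.97% in shCON and 8.95% and 12% in shSPTLC2, and S1PR2 made up 2.79% and 3.33% in shCON and 6.03% and 6.42% in shSPTLC2. None of these 3 shares overlapped between the groups (exact permutation p = 0.33 each, the smallest possible). They are parts of the same sum and rest on the receptor levels given above, so they are not separate observations. Over all tested genes the groups did not overlap in CPM for 61.5%. S1PR1 stayed the main receptor transcript in every library. The FPKM of S1PR3 was 0.0719 and 0.0665 of that of S1PR1 in the shCON libraries and 0.109 and 0.153 in the shSPTLC2 libraries. The ratio of S1PR2 to S1PR3 overlapped between groups (0.438 and 0.558 in shCON, 0.674 and 0.535 in shSPTLC2). The other receptor genes were too low to test: S1PR4 had 9 and 4 counts in shCON and 13 and 5 in shSPTLC2, and S1PR5 had 3 and 0 in shCON and 2 and 14 in shSPTLC2. The 14 counts of S1PR5 came from shSPTLC2 replicate 2 alone, and its 0 in shCON replicate 2 allows up to 0.206 CPM.

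**Figure D3:**
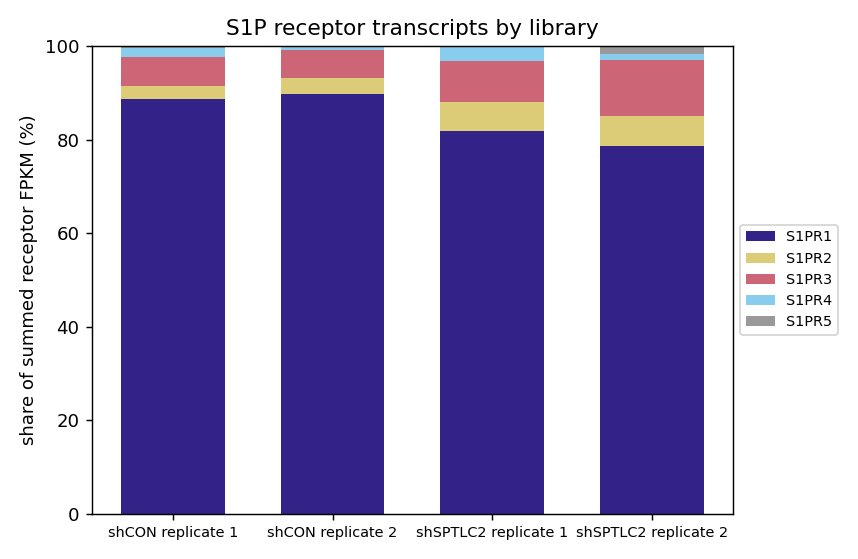
Share (%) of the summed deposited FPKM of the 5 S1P receptor genes that each receptor took in each of the 4 libraries. S1PR1 takes 88.6% and 89.8% in the shCON libraries and 81.9% and 78.7% in the shSPTLC2 libraries, where the S1PR2 and S1PR3 segments are wider.

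The starts of the receptor genes that rose differ in base composition. S1PR2 (ENSG00000267534) lies on hg38 chromosome 19, 10221433 to 10231331, on the minus strand, and S1PR3 (ENSG00000213694) on chromosome 9, 88990863 to 89005010, on the plus strand. The 250 bases before the most upstream RefSeq start of each, which is also the outer end of the gene in the table, are printed to compare these 2 genes that were called in the same direction. They are chr19:10231332-10231581 (minus strand) for S1PR2 and chr9:88990613-88990862 (plus strand) for S1PR3, on GRCh38.p14. Capitals mark the cAMP response motif TGACGTCA at the outer end of the S1PR2 window and GC boxes (GGGCGG on either strand).
S1PR2: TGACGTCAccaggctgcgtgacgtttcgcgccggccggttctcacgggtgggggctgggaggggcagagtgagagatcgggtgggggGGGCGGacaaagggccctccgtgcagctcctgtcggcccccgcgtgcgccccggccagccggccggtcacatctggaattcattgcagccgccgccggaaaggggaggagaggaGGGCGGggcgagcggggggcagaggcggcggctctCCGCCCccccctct
S1PR3: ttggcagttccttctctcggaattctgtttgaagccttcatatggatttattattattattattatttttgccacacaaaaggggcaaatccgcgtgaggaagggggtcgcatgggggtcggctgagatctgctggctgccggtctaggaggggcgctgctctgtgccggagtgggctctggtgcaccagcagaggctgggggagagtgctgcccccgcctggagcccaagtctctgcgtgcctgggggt
The S1PR2 window is 74.0% GC and that of S1PR3 57.2%, against a median of 58.0% over the 35116 windows. The S1PR2 window holds 3 GC boxes and the cAMP response motif, letters that 1.65% of windows hold. The S1PR3 window holds none of the 6 motifs searched, which also included the E-box CACGTG (6.34% of windows) and the C/EBP-ATF motif TGATGCAA (0.772%). The second RefSeq start of S1PR3, 605 bases downstream, has 76.4% GC and 8 GC boxes before it. The motifs were chosen after the windows had been read.

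The change of genes differed with the GC content of their transcripts, mainly at the highest GC content. From the lowest to the highest of 5 equal groups of tested coding genes, the median log2 fold change was -0.01, -0.09, -0.09, -0.01 and 0.20. Of the 2509 tested coding genes with transcripts of 58.9% GC or more, the highest of these groups, 592 were called higher and 122 lower. SPHK1, SPHK2 and SPNS2 belong to this group, with median transcript GC of 65.2%, 65.6% and 62.9%. None of them was called higher, nor were most genes of this group. The called genes lie outside it, with 49.1% for S1PR3, 50.5% for SGPP2 and 56.9% for S1PR2. With the GC-content correction the log2 fold changes were 0.81 for S1PR3, 0.97 for S1PR2 and -0.88 for SGPP2, all 3 still called, and SPHK1 had -0.23 (adjusted p = 0.14).

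**Figure D4:**
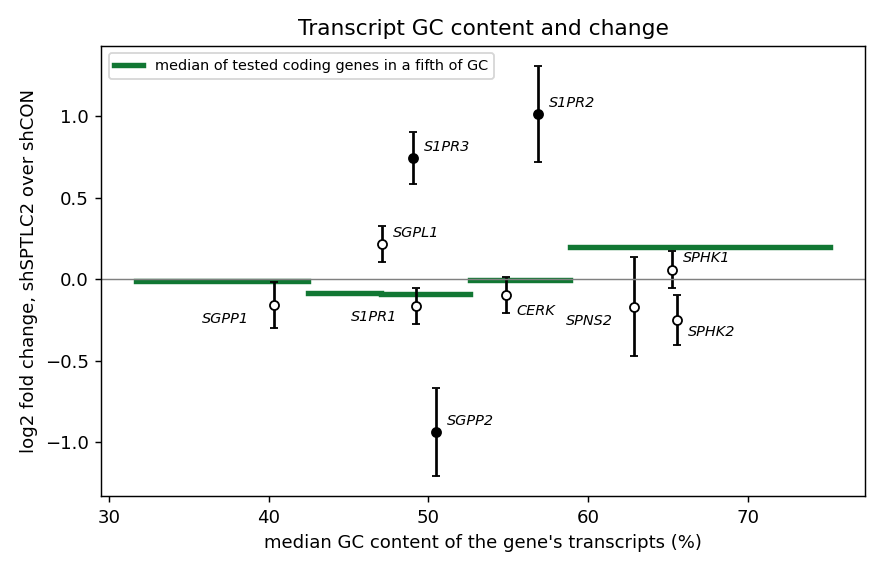
Median GC content (%) of each S1P gene's transcripts against its log2 fold change with SE, filled where called, with green bars for the median change of tested coding genes in 5 equal groups by GC content. SPHK1, SPHK2 and SPNS2 lie below the bar of their GC group (median 0.20), and the 3 called genes lie in groups with medians near or below 0.

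Genes around the S1P system were read from lists chosen from general knowledge. Of 43 such genes 34 were tested, 4 were called higher and 0 lower, against 10.4% and 9.0% of all tested genes. Their median log2 fold change was -0.04. Of the 5 tested ceramidase genes, which release the sphingosine that the kinases use, 0 were called. ASAH1, the acid ceramidase of lysosomes, had 0.15 ± 0.12 (adjusted p = 0.42) and ACER3, an alkaline ceramidase, 0.07 ± 0.12 (adjusted p = 0.74). Without shCON replicate 1 the count of listed genes called lower was 1, and without shCON replicate 2 it was 4, among them the ceramidase gene ASAH2B, named after its values were seen.

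Among transporters and carriers 1 of 6 tested genes was called, against 19.4% of all tested genes. ABCA1, a sterol and phospholipid exporter that has also been linked to S1P export, rose from 123 and 117 CPM in shCON to 172 and 214 CPM in shSPTLC2. On the log2 scale this was a change of 0.69 ± 0.12 (SE, adjusted p = 0.0011), or 0.52 without shSPTLC2 replicate 2 (adjusted p = 0.050, not called). ABCC1, another exporter linked to S1P, had 156 and 152 CPM in shCON and 166 and 183 CPM in shSPTLC2, a log2 fold change of 0.19 ± 0.10 (adjusted p = 0.23).

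Of 6 tested genes of lipid phosphatases and S1P or ceramide-1-phosphate handling, 2 were called higher. Over all tested genes 10.4% were, and a list this small cannot be told apart from that share. PLA2G4A, the cytosolic phospholipase that ceramide-1-phosphate activates, rose from 61 and 49 counts to 91 and 111 counts (0.84 ± 0.24, adjusted p = 0.024). CPTP, the ceramide-1-phosphate transfer protein, rose from 533 and 411 counts to 674 and 623 (0.43 ± 0.14, adjusted p = 0.042). PLA2G4A was not called without shCON replicate 2 (adjusted p = 0.069) or either shSPTLC2 library (0.098 and 0.19), nor CPTP without these (0.21, 0.34 and 0.11). With the GC-content correction CPTP, whose transcripts have 67.5% GC, had a log2 fold change of 0.08 (adjusted p = 0.68). The more abundant members CIB1, a calcium-binding protein that carries SPHK1 to the membrane (-0.23 ± 0.12, adjusted p = 0.20), and ALDH3A2, which oxidises a product of the lyase (0.01 ± 0.12, adjusted p = 0.97), were not called.

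Lysophosphatidic acid receptors and their producer were listed as the related lysophospholipid family. Of that list 1 of 5 tested genes was called, against 19.4% of all tested genes. LPAR2 rose from 24 and 32 counts in the shCON libraries to 119 and 82 in the shSPTLC2 libraries, without overlap. On the log2 scale it rose by 1.81 ± 0.30 (SE, adjusted p = 0.00094), and by 1.48 to 2.08 with 1 library left out. Its transcripts have 62.9% GC, and with the GC-content correction it rose by 1.59 ± 0.30 (adjusted p = 0.0022). It was not called in limma on log2(FPKM + 0.1) without a filter (adjusted p = 0.14). LPAR3, the most abundant of the list at 59.9 CPM, had a log2 fold change of -0.11 ± 0.11 (adjusted p = 0.52).

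S1PR1 and its relatives are well known in endothelium, so endothelial markers are given beside them. Their summed level was 61.4 and 59.9 CPM in the shCON libraries and 110 and 133 CPM in the shSPTLC2 libraries, almost all of it from CDH5, the VE-cadherin gene, which rose by 1.09 ± 0.12 (log2, adjusted p = 3.7e-05). The other endothelial markers were near 0, with means of 1.28 CPM for PECAM1, 1.01 for VWF and 0.946 for KDR, and PECAM1 fell by 1.71 on the log2 scale (adjusted p = 0.018). Fibroblast markers summed to 1.89 and 2.68 CPM in shCON and 7.00 and 5.54 CPM in shSPTLC2, with DCN and LUM at 0 in every library and COL1A1 called higher (1.52 ± 0.30, log2, adjusted p = 0.0029). The part of these and of the epithelial markers in the results was not tested.

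For each called gene, the 3 coding genes of similar level whose log2 CPM over the 4 libraries lay closest to it were listed by Euclidean distance between deviations from the gene mean. For S1PR3 they were PLAG1 (distance 0.0720), TMTC4 (0.0834) and PGPEP1 (0.0847), out of 4068 candidates. For S1PR2 they were C1QTNF12 (0.0761), KIT (0.0955) and CAPS (0.104), out of 1669. For SGPP2 they were MMP1 (0.0949), PAGR1 (0.0976) and KDM8 (0.116), out of 2015. With 4 libraries many genes share such a profile, and the distance describes these libraries only.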

How the data were processed

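RNA from 4 Hey-A8 libraries was compared as 2 shCON against 2 shSPTLC2. The deposited count table holds the authors' raw counts per Ensembl gene, and the deposited FPKM table holds those counts divided by gene length and a library factor (equal within a relative tolerance of 1e-06). Per the submitters' processing notes the tools included HISAT2, StringTie and SAMtools, with build hg38; the counting program is not given in the sources used here. Positions and exons are from GENCODE 29, upstream sequences from RefSeq (GRCh38.p14), which had windows for 7 of the 10 genes.

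Counts were tested in R 4.3.3 with edgeR 4.0.16 (filterByExpr, minimum count 10, minimum total 15; TMM; robust quasi-likelihood F test, two-sided; Benjamini-Hochberg over 15313 genes; threshold 0.05). SEs were obtained by dividing the size of each log2 fold change by the root of its F statistic. CPM use TMM-adjusted sizes. A count of 0 was taken to allow 3 counts, for counting error only. DESeq2 1.42.0 and limma 3.58.1 (voom on counts, and log2 FPKM) were alternatives. The script was tested on simulated data, where 200 of 15313 genes were altered. When the simulated fold was 1.5, the test found 26.9% of the altered genes. It found 73.1% when the fold was 2 and 95.5% when it was 4. False calls made up 16 out of 146. A gene that was not called can therefore have changed, above all by a small amount.

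The genes and lists were chosen with earlier results of these data known. The text names all 10 genes, SPTLC2, ZDHHC15, every called list gene, up to 2 abundant genes per list (1 list is not reported here), and for each called S1P gene the 3 coding genes, of mean CPM within 2-fold, with the most similar profile. Other genes named were chosen after their values were seen.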

Additional observations from a re-analysis of the deposited data

How the results depend on the processing

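The count of called genes was 2971 in edgeR (1593 higher, 1378 lower), 1978 in DESeq2 (972 higher), 1719 in limma on log2(FPKM + 0.1) (920 higher, 799 lower) and 1716 on log2(FPKM + 1) (921 higher, 795 lower). It was 0 on log2(FPKM + 0.1) without a filter, where 4933 genes had an unadjusted p under 0.05. Leaving out 1 library gave 640 to 4027 calls (413 to 1977 higher, 227 to 2050 lower). With library totals 65.1% of calls were higher, against 53.6% with TMM.

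S1P genes called higher numbered 1 in DESeq2 and in limma on FPKM with either pseudocount, 0 without the filter, and 0 to 2 with 1 library left out. S1P genes called lower numbered 0 in DESeq2 and in the limma fits on FPKM, 1 in limma-voom on counts, 0 to 1 with 1 library left out, and 2 with GC-content correction, with or without the replicate block, SPHK2 joining SGPP2. Context genes called higher numbered 2 in DESeq2, 0 in unfiltered limma and 1 to 4 with 1 library left out. Context genes called lower numbered 0 to 4 with 1 library left out, 2 with GC-content correction and 3 with the replicate block added.

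The sign turned for SPHK1 without shCON replicate 2 (-0.061), without shSPTLC2 replicate 1 (-0.05) and with GC-content correction (-0.23, also -0.23 with the block), for SGPP1 without shCON replicate 1 (0.029), for SPNS2 without shCON replicate 2 (0.16) or shSPTLC2 replicate 2 (0.19), and for the difference in the S1PR4 share without shSPTLC2 replicate 1 (-0.32 percentage points). With 1 library left out these values ran from -0.061 to 0.17 for SPHK1, -0.34 to 0.029 for SGPP1, -0.64 to 0.19 for SPNS2 and -0.32 to 1.44 percentage points for S1PR4. The cause was not tested. The labels do not say that equal replicate numbers mark a shared day or culture, so the main fit did not pair the libraries. Deviations from the group means correlated at -0.013 between same-numbered libraries, which does not settle whether they were paired. The replicate block, with 3307 calls, changed no call of the 10 genes.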
